A study of Homo sapiens with 12 samples.

Results

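The genes of polyamine synthesis and catabolism were followed in human multiple myeloma cell lines treated with a BET bromodomain inhibitor, with lenalidomide and dexamethasone, or with both. They were the 9 genes SAT1, SMOX, ODC1, AMD1, SRM, SMS, OAZ1, OAZ2 and AZIN1, chosen by name for their roles with the rise of SAT1 and other results of these arrays known, out of 18239 genes with a probe set annotated to a single symbol. The arrays held 30 such probe sets for them, and all 9 passed the filter on low levels that left 15173 genes to test. RNA came from the lines ARP1, JJN3 and RPMI-8226, so named by the labels, and each line gave 1 array to each of 4 groups after 6 h. Control cells had no drug named in their labels. CPI203 cells had 0.01 µM of CPI203, LenDex cells had 5 µM of lenalidomide with 0.05 µM of dexamethasone, and Combo cells had all 3 drugs at these concentrations. The 6 h is in the treatment protocol, and the titles of the CPI203 arrays give no time. No array had lenalidomide or dexamethasone alone, so their effects cannot be told apart. Each group therefore had n = 3 arrays, 1 for each line, with no second culture of a line under the same treatment, and this number limits the precision. The p-values rest on the spread left after group and line were fitted, moderated across genes. Where a drug effect is averaged over cells with and without the other treatment, both pairs of arrays of a line enter that spread. Such pairs share a line, so these p-values can understate how far the responses varied between the lines. The study, by its title, asked whether CPI203 adds to lenalidomide through Ikaros and MYC.

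Polyamines (putrescine, spermidine and spermine) are small cations that bind nucleic acids and are needed for growth and translation. Ornithine decarboxylase (ODC1) makes putrescine, S-adenosylmethionine decarboxylase (AMD1) supplies the aminopropyl donor, and the spermidine synthase SRM and the spermine synthase SMS add aminopropyl groups. Spermidine/spermine acetyltransferase (SAT1) marks polyamines for export or oxidation, spermine oxidase (SMOX) turns spermine back into spermidine, the antizymes OAZ1 and OAZ2 send ornithine decarboxylase to the proteasome, and the antizyme inhibitor AZIN1 opposes them. ODC1 is a textbook target of the transcription factor MYC, whose own transcript falls under BET inhibitors in many myeloma cells, and SRM and AMD1 are also listed among MYC targets. Antizyme translation and ornithine decarboxylase turnover are controlled largely after transcription, which arrays do not measure.

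The promoters differ in a motif that MYC can bind, and its part in the changes described below was not tested. The DNA letters below come from RefSeq on build GRCh38.p14, which held 10 start sites for 7 of the 9 genes. In the 250 bases before each start, the motif CACGTG, the E-box that MYC and its partner MAX bind and that reads the same on both strands, was found once in SRM, with its first base 199 bases before the start. It was also found once before the downstream of the ODC1 starts, 29 bases before it. It was in none of the windows of SAT1, SMS, AMD1, OAZ1 or OAZ2. The window before the upstream ODC1 start did not hold it either. Of 35116 RefSeq promoter windows of this length, 6.34% held CACGTG. The SAT1 window also lacked GGGCGG, the box bound by SP1 (searched on both strands, and found in 42.6% of all windows), which each of the other 9 windows held at least once, and it lacked TATAAA (10.7% of all windows), as did every other window of these genes. These are matches of letters and do not show binding. SRM, ODC1 and SAT1 are shown because SRM and ODC1 hold the E-box and SAT1 does not. Capitals mark CACGTG. The SRM window is chr1:11060019-11060268 on the minus strand, the ODC1 stretch is chr2:10448024-10448053 on the minus strand, and the SAT1 window is chrX:23782923-23783172 on the plus strand.
SRM: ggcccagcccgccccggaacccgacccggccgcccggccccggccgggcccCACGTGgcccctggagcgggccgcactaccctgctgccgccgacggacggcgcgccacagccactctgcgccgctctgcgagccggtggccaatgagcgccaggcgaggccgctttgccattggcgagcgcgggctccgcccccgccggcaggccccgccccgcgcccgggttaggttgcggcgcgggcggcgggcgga
ODC1: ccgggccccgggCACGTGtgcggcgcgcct
SAT1: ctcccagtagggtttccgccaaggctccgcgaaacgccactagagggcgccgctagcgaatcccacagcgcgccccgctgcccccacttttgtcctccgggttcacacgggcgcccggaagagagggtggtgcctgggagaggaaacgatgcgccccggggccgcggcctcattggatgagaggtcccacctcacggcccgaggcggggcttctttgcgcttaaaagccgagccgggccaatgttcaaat

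The JJN3 and RPMI-8226 arrays went against their labels as myeloma lines in SDC1 and MS4A1, and the called changes of the 9 genes are also given without each of these lines and with the 2 averaged. SDC1, the plasma cell antigen CD138, lay between 11.78 and 12.26 on the log2 scale on the ARP1 arrays but between 4.96 and 5.79 on the JJN3 and RPMI-8226 arrays. MS4A1, the B cell antigen CD20, lay between 4.59 and 5.33 on the ARP1 arrays and between 11.48 and 12.06 on the others. Not every marker went this way. The plasma cell marker IRF4 was at 11.83 to 12.26 on ARP1 and higher, at 12.37 to 13.31, on the others. The B cell marker BACH2 was at 6.24 to 8.01 on ARP1 and lower, at 4.88 to 5.40, on the others. PAX5 (B cell) and SLAMF7 and POU2AF1 (plasma cell) had ranges that overlapped between ARP1 and the other lines. The median of 10 plasma cell markers was 11.75, 11.68, 11.69 and 11.56 on the ARP1 arrays (control, CPI203, LenDex, Combo), 9.54, 8.34, 8.27 and 7.32 on the JJN3 arrays, and 8.63, 6.73, 7.73 and 6.93 on the RPMI-8226 arrays. It was thus lower on every treated array than on the control array of its line, alongside the drug changes described below, and its part in them was not tested. The medians of 8 of 9 B cell markers ran from 5.42 to 6.07 on ARP1, 9.77 to 10.30 on JJN3 and 9.48 to 9.86 on RPMI-8226 arrays. Medians of 4 T cell and of 6 monocyte markers stayed between 4.83 and 5.301 on all 12 arrays, and those of 3 erythroid genes between 5.25 and 5.82. Of these HBG1, a fetal globin, was at 6.77 and 6.91 on the RPMI-8226 arrays without CPI203 and at 8.43 and 8.53 on those with it, against 12.26 to 13.32 on the other arrays, and its part in the results was not tested. JJN3 and RPMI-8226 arrays correlated with each other at Pearson r from 0.966 to 0.982 over genes, against 0.981 to 0.990 among JJN3 arrays, so these 2 labels may not stand for independent replicates, which was not tested. The JJN3 control array had the immunoglobulin gene IGKC at 9.32, against 5.11 to 5.55 on the other JJN3 arrays. Line names below are the labels of the arrays. Levels are log2 probe set values, changes are differences of log2 values with the standard error (SE), and the threshold for a call was an adjusted p of 0.05.

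CPI203 was followed by more SAT1 transcript in every line. On the ARP1 arrays SAT1 stood at 7.40 in control cells, 8.06 with CPI203, 7.44 with LenDex and 8.24 with Combo. On the JJN3 arrays it stood at 11.62, 12.31, 11.69 and 12.07, and on the RPMI-8226 arrays at 10.07, 11.76, 9.83 and 11.33, in the same order of groups. Within each line both arrays with CPI203 were above both arrays without it, whereas across lines the groups overlapped. Averaged over cells with and without LenDex (6 arrays against 6), SAT1 rose by 0.95 ± 0.17 (SE), or 1.93-fold (95% interval of the log2 change 0.57 to 1.33, limma adjusted p = 0.0192). By line the average was 0.73 (ARP1), 0.53 (JJN3) and 1.59 (RPMI-8226), and a moderated F test of a difference between lines gave an adjusted p of 0.0984. RNA came from whole cultures, so more SAT1 in every cell and more cells with SAT1 cannot be told apart. A rise of SAT1 was known from earlier results on these arrays and is repeated here as the base for the comparison with the other genes.

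**Figure D1:**
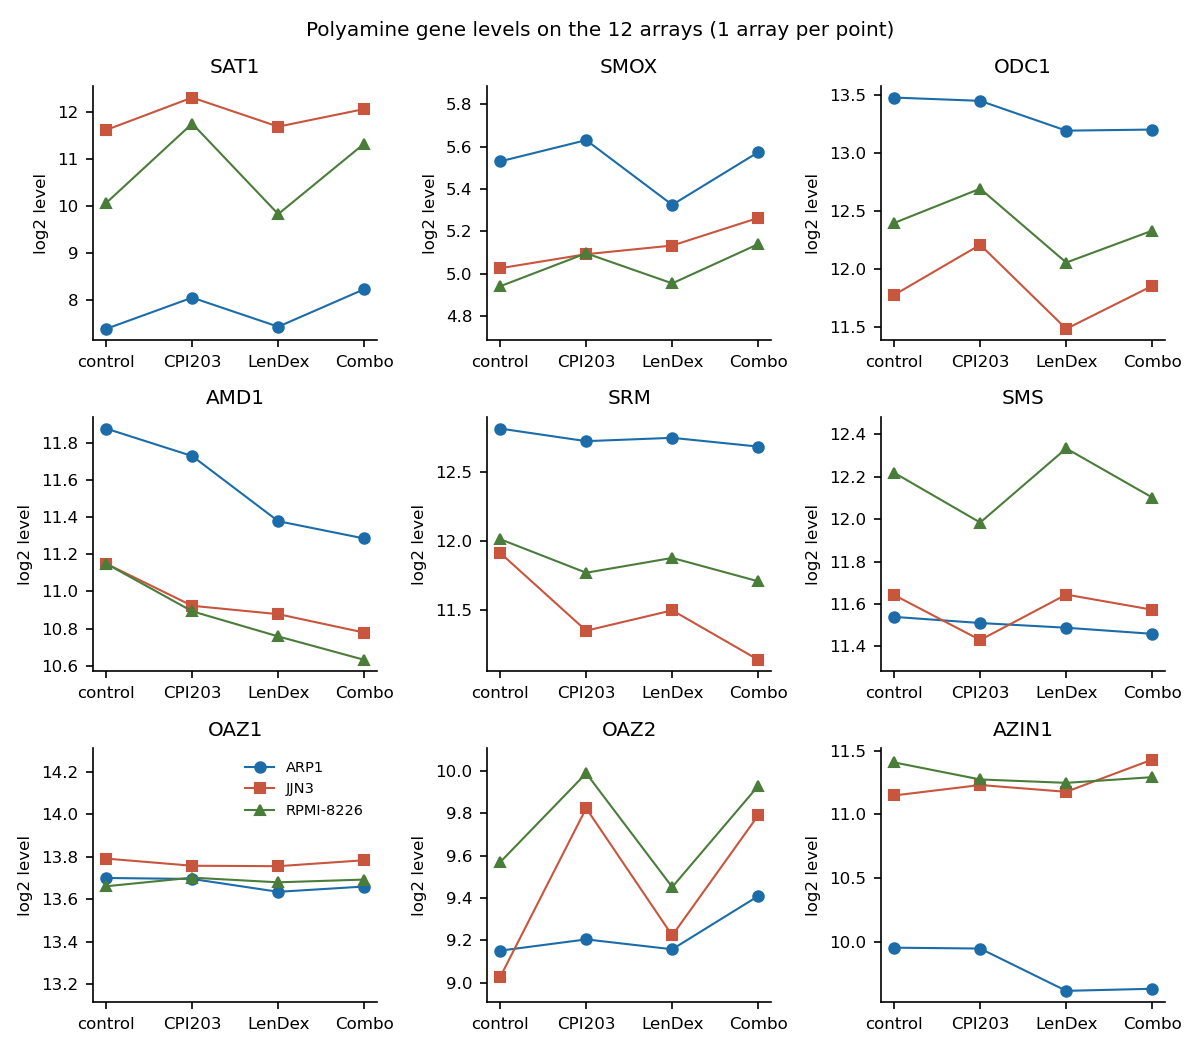
Log2 level (vertical axis) of each of the 9 genes on the 12 arrays by treatment (horizontal axis), with 1 point per array and a line joining the arrays of a cell line. The vertical range differs between panels. SAT1 is higher on both CPI203-treated arrays of each line, OAZ1 stays between 13.63 and 13.79, and AMD1 is lower with LenDex in all lines.

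All 3 SAT1 probe sets had positive average changes with CPI203, and 2 of them passed the test. The probe set 11743036_s_at, the brightest, gave the values above. The probe set 11760200_a_at stood at 5.03, 5.56, 4.93 and 5.06 on the ARP1 arrays (control, CPI203, LenDex, Combo), at 5.39, 8.82, 6.12 and 7.92 on the JJN3 arrays and at 5.57, 8.91, 5.55 and 8.49 on the RPMI-8226 arrays. The ARP1 arrays and the JJN3 and RPMI-8226 control arrays were all near the array medians of 5.304 to 5.375, so no fold change is given over them, whereas the 4 arrays with CPI203 of the last 2 lines were well above these medians. Its average change was 2.03 ± 0.40 (adjusted p = 0.0265 over 35458 probe sets tested singly, of which 4.83% were called). Without the JJN3 control array it was 1.84 (adjusted p = 0.0747).

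The probe set 11763704_a_at showed a difference between lines that passed the test. It stood at 5.95, 6.05, 5.94 and 6.10 on the ARP1 arrays, at 9.45, 10.62, 9.50 and 10.34 on the JJN3 arrays and at 7.79, 10.47, 6.97 and 9.77 on the RPMI-8226 arrays. The ARP1 values hardly moved, and the RPMI-8226 values with and without CPI203 lay far apart. The changes with CPI203 were 0.10 and 0.15 for the ARP1 pairs, 1.17 and 0.84 for JJN3, and 2.68 and 2.80 for RPMI-8226, without and with LenDex. The line difference had an adjusted p of 0.0479 in limma's F test, which called 0.0677% of the probe sets, and the average change of 1.29 ± 0.36 did not pass (adjusted p = 0.0693). Without the JJN3 control array the line difference was no longer called (adjusted p = 0.204). The deposited table does not say which SAT1 transcripts each probe set reads.

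**Figure D2:**
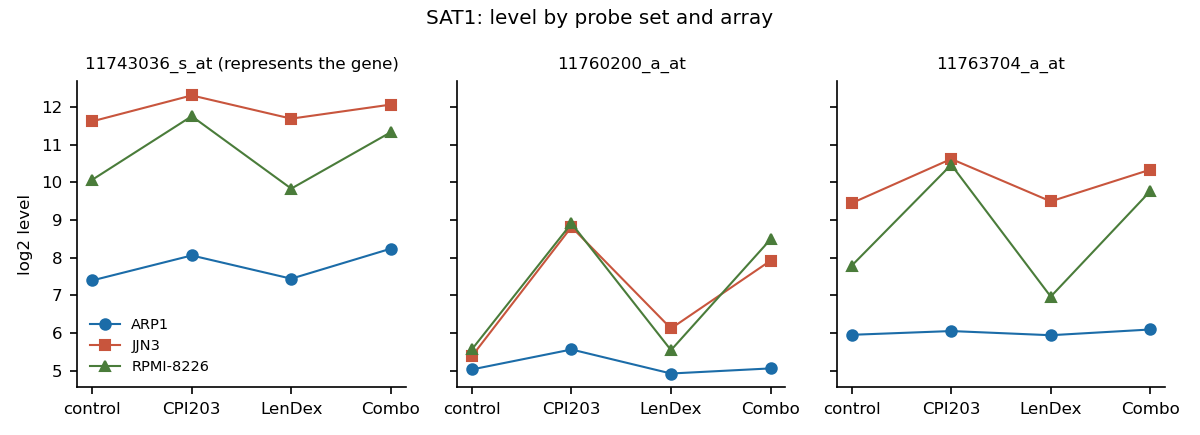
Log2 level (vertical axis, shared) of the 3 SAT1 probe sets by treatment, with 1 point per array and a line joining the arrays of a cell line. The probe set 11760200_a_at reaches 8.82 on the JJN3 and 8.91 on the RPMI-8226 array with CPI203 but stays at or below 5.56 on the ARP1 arrays.

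SMOX, the other catabolic enzyme, was near the floor of the arrays. It lay between 5.33 and 5.63 on the ARP1 arrays, 5.03 and 5.26 on the JJN3 arrays and 4.94 and 5.14 on the RPMI-8226 arrays. The average change with CPI203 was 0.15 ± 0.07 (adjusted p = 0.218), positive in all 3 lines and not called. None of its 4 probe sets passed singly, with changes from -0.0013 to 0.15.

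The 4 synthesis genes differed in direction with CPI203, and none of them passed the test in the main fit. Over 23 alternative settings ODC1 was called higher in 2 and SRM lower in 1 (lowest limma adjusted p 0.0246 and 0.0257). AMD1 and SMS were called in none. ODC1 stood at 13.48, 13.45, 13.19 and 13.20 on the ARP1 arrays (control, CPI203, LenDex, Combo), at 11.77, 12.21, 11.48 and 11.85 on the JJN3 arrays, and at 12.39, 12.69, 12.05 and 12.33 on the RPMI-8226 arrays. ODC1 was above its partner without CPI203 in 5 of 6 pairs of arrays, and the ARP1 pairs differed by -0.03 and 0.01. The average change was 0.23 ± 0.08 (95% interval 0.05 to 0.40, adjusted p = 0.116), so ODC1 was not lower in this comparison. MYC itself, whose product activates ODC1, fell by 0.51 ± 0.10 (adjusted p = 0.025) and was lower in all 6 pairs, a call that was lost without the JJN3 control array (-0.54, adjusted p = 0.062) and when the JJN3 and RPMI-8226 arrays were averaged (-0.46, adjusted p = 0.228).

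SRM stood at 12.82, 12.72, 12.75 and 12.68 on the ARP1 arrays, at 11.91, 11.35, 11.49 and 11.13 on the JJN3 arrays, and at 12.01, 11.77, 11.88 and 11.71 on the RPMI-8226 arrays. Every array with CPI203 was below its partner, with differences from -0.57 to -0.06 on the log2 scale, and the JJN3 pairs had the largest differences. The average change was -0.25 ± 0.09 (adjusted p = 0.106), and the second SRM probe set gave -0.26 ± 0.10. That second probe set was higher with CPI203 in the ARP1 pair with LenDex, by 0.10, and lower in the remaining pairs. AMD1 with CPI203 was below its partner in 6 of 6 pairs (average -0.16 ± 0.07, adjusted p = 0.182), but 3 of its 7 probe sets had averages above 0, up to 0.01. SMS was also below its partner in 6 of 6 pairs, with an average of -0.13 ± 0.07 (adjusted p = 0.261). Its second bright probe set gave -0.15 ± 0.07, and the probe set 11761617_at, at 0.20 ± 0.09 (adjusted p = 0.225), lay between 4.63 and 5.34, at or below the array medians.

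Among the regulators of ornithine decarboxylase, OAZ2 rose with CPI203 and OAZ1 and AZIN1 were not called. OAZ2 stood at 9.15, 9.21, 9.16 and 9.41 on the ARP1 arrays, at 9.03, 9.82, 9.22 and 9.79 on the JJN3 arrays, and at 9.57, 9.99, 9.45 and 9.93 on the RPMI-8226 arrays. All 6 arrays with CPI203 were above their partners, by 0.05 to 0.80, with the smallest difference on the ARP1 arrays. The average rise was 0.43 ± 0.10, or 1.35-fold (adjusted p = 0.0334), with line averages of 0.15, 0.68 and 0.45 and an adjusted p of 0.306 for a difference between lines. Its second probe set, 11715726_a_at, gave 0.27 ± 0.12 (adjusted p = 0.222) and was lower with CPI203 in both ARP1 pairs, by differences of -0.12 and -0.10.

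OAZ1, an antizyme made in nearly all cell types, lay between 13.63 and 13.79 on all 12 arrays. Its average change with CPI203 was 0.01 ± 0.06 (95% interval -0.12 to 0.14, adjusted p = 0.944), and all 6 of its probe sets lay between 0.01 and 0.14. AZIN1 was at 9.96, 9.95, 9.62 and 9.63 on the ARP1 arrays, 11.15, 11.23, 11.18 and 11.43 on the JJN3 arrays, and 11.41, 11.27, 11.25 and 11.29 on the RPMI-8226 arrays. Its average change with CPI203 was 0.04 ± 0.09 (adjusted p = 0.832), with lines on both sides of 0.

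In all, 2 of the 9 genes were called with CPI203, both higher, and 5 of 9 had an unadjusted p under 0.05. Over all 15173 genes the shares were 3.3% called higher, 3.99% called lower, 7.28% called either way and 24.1% with an unadjusted p under 0.05. The rise of SAT1 was known when the 9 genes were chosen, so the count beside these shares is not a test. The median change of the 9 genes was 0.04, against -0.0032 over all genes. Both calls were lost without the JJN3 line (SAT1 1.16, adjusted p = 0.336; OAZ2 0.30, adjusted p = 0.376) and without the RPMI-8226 line (SAT1 0.63, adjusted p = 0.308; OAZ2 0.42, adjusted p = 0.364). Without the ARP1 line both held in limma (SAT1 1.06, adjusted p = 0.0190, and OAZ2 0.57, adjusted p = 0.00992). The share of all genes called without a line is not given. The calls changed in other fits too. Both were lost without the JJN3 control array (SAT1 1.003, adjusted p = 0.0516; OAZ2 0.36, adjusted p = 0.0843), and when the JJN3 and RPMI-8226 arrays were averaged (SAT1 0.90, adjusted p = 0.169; OAZ2 0.36, adjusted p = 0.302). SAT1 held in 6 and OAZ2 in 4 of the 12 fits that left out 1 array: both were lost without the JJN3 CPI203 array or any 1 of the 4 RPMI-8226 arrays (SAT1 0.80 to 1.01, adjusted p 0.0516 to 0.0676), and OAZ2 also without the JJN3 LenDex or Combo array.

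**Figure D3:**
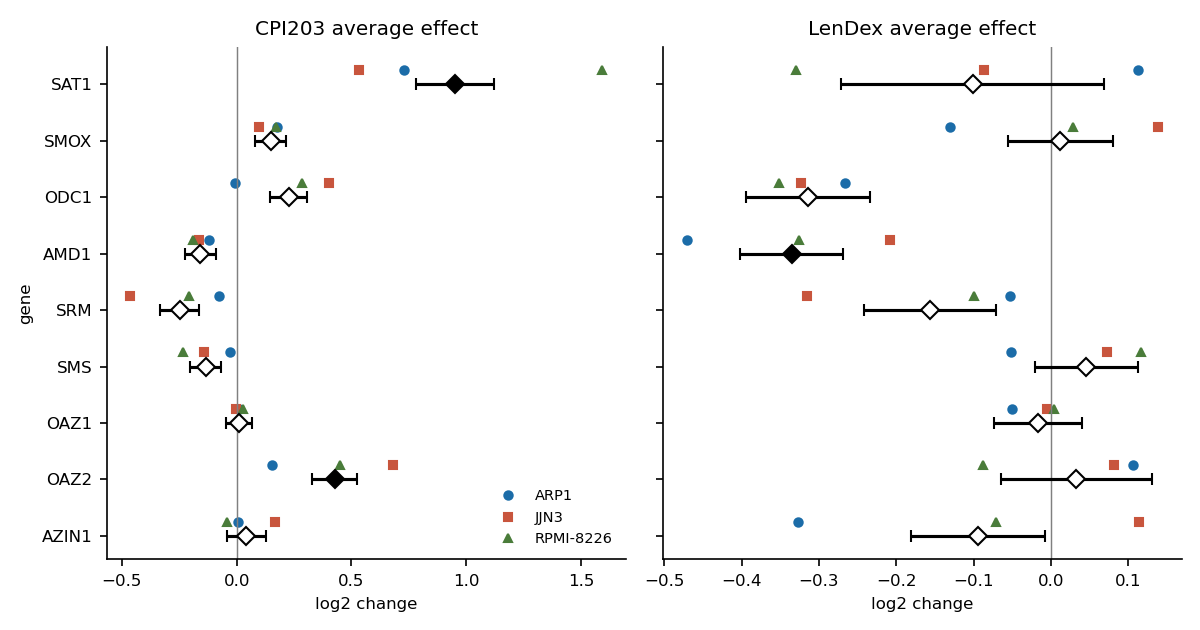
Log2 change (horizontal axis) of the 9 genes with CPI203 (left) and with LenDex (right), each averaged over both levels of the other treatment, with coloured points for the lines and diamonds for the fit with its SE; filled diamonds were called. SAT1 and OAZ2 are filled on the left and AMD1 on the right.

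Set side by side within each pair of arrays, SAT1 moved above the synthesis genes. The change of SAT1 with CPI203 was 0.66 and 0.80 for ARP1, 0.69 and 0.37 for JJN3, and 1.69 and 1.497 for RPMI-8226, without and with LenDex. The change of SAT1 minus that of ODC1 lay between 0.0023 and 1.39 (median 0.74), and the lowest value came from the JJN3 pair with LenDex, where the genes moved by 0.37 each. The same difference lay between 0.47 and 1.94 for AMD1, 0.73 and 1.93 for SRM, and 0.44 and 1.92 for SMS. It was above 0 in 6 of 6 pairs for each of the 4 genes, which is given as a description with no test because the comparison was proposed with the rise of SAT1 known.

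MYC and HEXIM1, a transcript that rises under BET inhibitors, are given for the same pairs. MYC changed by -0.32 and -0.34 for ARP1, -0.36 and -0.30 for JJN3, and -1.05 and -0.68 for RPMI-8226. HEXIM1 changed by 0.22 and 0.25 for ARP1, 1.46 and 1.38 for JJN3, and 1.86 and 1.70 for RPMI-8226. SAT1 and MYC thus both had their largest changes in the RPMI-8226 pairs, whereas SRM had its largest in the JJN3 pairs. ODC1 had its largest positive changes in JJN3 as well, at 0.43 and 0.37.

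**Figure D4:**
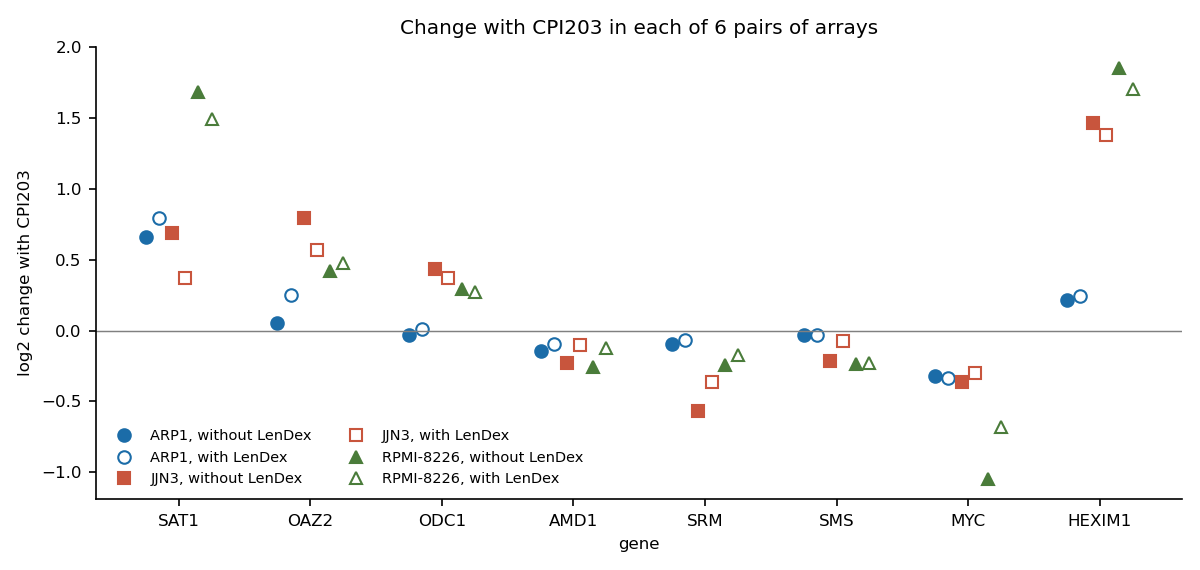
Log2 change with CPI203 (vertical axis) of SAT1, OAZ2, the 4 synthesis genes, MYC and HEXIM1 in each of 6 pairs of arrays, with colours and shapes for the lines, filled without and open with LenDex. All SAT1 and OAZ2 points are above 0 and all AMD1, SRM, SMS and MYC points below it, while ODC1 runs from -0.03 to 0.43.

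LenDex was followed by less AMD1, the decarboxylase that supplies the aminopropyl donor. AMD1 stood at 11.88, 11.73, 11.38 and 11.28 on the ARP1 arrays (control, CPI203, LenDex, Combo), at 11.15, 10.92, 10.88 and 10.78 on the JJN3 arrays, and at 11.15, 10.89, 10.76 and 10.63 on the RPMI-8226 arrays. Within each line both arrays with LenDex were below both arrays without it. Averaged over cells with and without CPI203, AMD1 fell by 0.34 ± 0.07 on the log2 scale, 1.26-fold lower (adjusted p = 0.0264), and the line averages were -0.47, -0.21 and -0.33. All 7 AMD1 probe sets were lower, by averages from -0.52 to -0.24, and 4 of them passed when probe sets were tested singly (3.26% of all probe sets did). Without the JJN3 control array 11748140_s_at, 11755126_s_at and 11758768_x_at were still called (limma adjusted p 0.0214 to 0.0495). The brightest probe set was not (0.0618), nor were the remaining ones. None was called when the JJN3 and RPMI-8226 arrays were averaged.

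**Figure D5:**
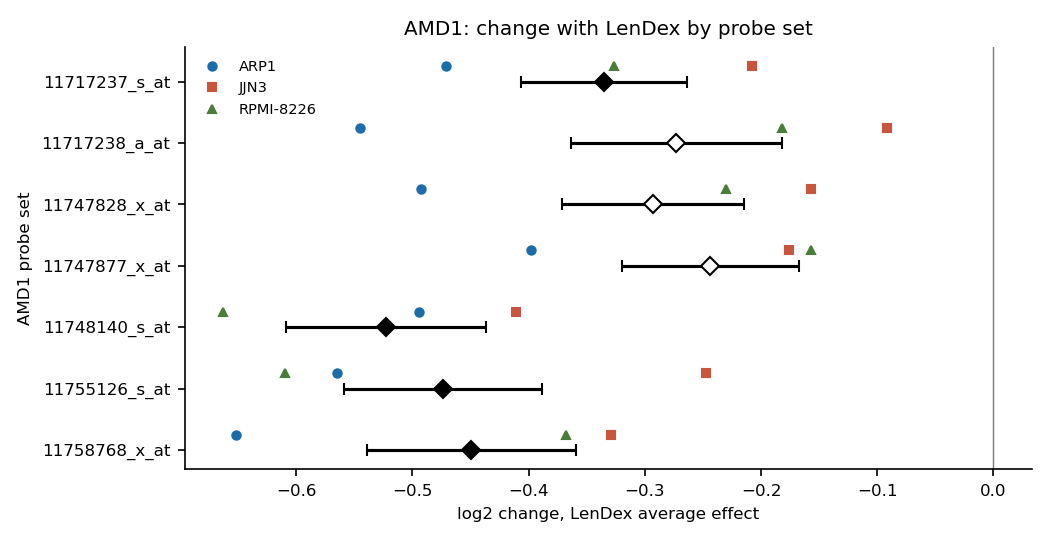
Log2 change with LenDex (horizontal axis) of the 7 AMD1 probe sets, averaged over cells with and without CPI203, with coloured points for the lines and diamonds for the fit with its SE; filled diamonds were called. All points are below 0, and the averages run from -0.52 to -0.24.

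ODC1 was also lower with LenDex in all 6 pairs, by an average of -0.31 ± 0.08, which did not pass (adjusted p = 0.0593). Its line averages were -0.27, -0.32 and -0.35. SRM was at -0.16 ± 0.09 (adjusted p = 0.367) and SMS at 0.05 ± 0.07 (adjusted p = 0.783). SAT1 showed no called change, at -0.10 ± 0.17 (adjusted p = 0.817), with a 95% interval of -0.48 to 0.28. OAZ1, OAZ2, AZIN1 and SMOX lay between -0.09 and 0.03 and were not called.

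Of the 9 genes, 1 was called lower and none higher with LenDex, where 2.52% of all genes were called lower, 1.73% higher and 4.25% either way, and 2 of 9 had an unadjusted p under 0.05 (18.9% of all genes). The median change of the 9 genes was -0.0945, beside 0.0077 over all genes. The call of AMD1 held in 2 of the 12 fits that left out 1 array (range -0.36 to -0.30, adjusted p 0.0434 to 0.0827), namely those without the ARP1 control or the ARP1 Combo array, and was lost without the ARP1 line (-0.27, adjusted p = 0.104), the JJN3 line (-0.40, adjusted p = 0.209) or the RPMI-8226 line (-0.34, adjusted p = 0.295), and when the JJN3 and RPMI-8226 arrays were averaged (-0.37, adjusted p = 0.187). On the RPMI-8226 arrays the actin 3' to 5' difference, a sign of RNA quality, was 0.448 and 0.391 with LenDex against 0.275 and 0.226 without it, and the GAPDH difference was -0.087 and -0.102 against -0.216 and -0.153, and their part in the result was not tested.

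With the combination AMD1 was the 1 gene of the 9 that was called. Against control, AMD1 with Combo fell by 0.49 ± 0.09 on the log2 scale, 1.41-fold lower (adjusted p = 0.0158), with changes of -0.59 (ARP1), -0.37 (JJN3) and -0.52 (RPMI-8226). SAT1 was at 0.85 ± 0.24 (adjusted p = 0.0571), OAZ2 at 0.46 ± 0.14 (adjusted p = 0.0687) and SRM at -0.41 ± 0.12 (adjusted p = 0.0667), none of them called. ODC1, whose averages were 0.23 with CPI203 and -0.31 with LenDex, neither called, was at -0.09 ± 0.11 (95% interval -0.34 to 0.16, adjusted p = 0.704). MYC fell by 0.81 ± 0.15 (adjusted p = 0.0129; 0.109 when the JJN3 and RPMI-8226 arrays were averaged).

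Thus 1 of 9 genes was called with Combo, where 5.6% of all genes were called lower, 3.55% higher and 9.15% either way, and 4 of 9 had an unadjusted p under 0.05 (24.3% of all genes). The median change of the 9 genes was -0.0521, beside 0.0098 over all genes. The AMD1 call was lost without the JJN3 line (-0.55, adjusted p = 0.185), without the RPMI-8226 line (-0.48, adjusted p = 0.234), without the JJN3 control, JJN3 Combo, RPMI-8226 control or RPMI-8226 Combo array (adjusted p 0.0527 to 0.0847), and when the JJN3 and RPMI-8226 arrays were averaged (-0.52, adjusted p = 0.154). Singly, 3 of the 7 AMD1 probe sets were called lower with Combo (6.62% of all probe sets were called). Without the JJN3 control array only 11755126_s_at was (limma adjusted p = 0.0432), and none was when the JJN3 and RPMI-8226 arrays were averaged. The call of the gene held in the other 8 fits that left out 1 array and without ARP1 (-0.44, adjusted p = 0.0394).

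The other comparisons of single groups called none of the 9 genes. Against control, CPI203 alone gave 1.01 ± 0.24 for SAT1 (adjusted p = 0.109), and 3 of 9 genes had an unadjusted p under 0.05, where 0.00659% of all genes were called and 16.2% had such a p. LenDex alone gave -0.39 ± 0.09 for AMD1 (adjusted p = 0.111), with 2 of 9 genes at an unadjusted p under 0.05, against 0.461% called and 13.7% with such a p. These comparisons share their control arrays with each other and with that of Combo. Combo against LenDex, which adds CPI203, called 0% of genes and Combo against CPI203, which adds LenDex, 0.0461%, and each had 2 of 9 genes at an unadjusted p under 0.05 (14.9% and 10.9% of all genes).

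No departure from additive drug effects was found for the 9 genes. The interaction was called in 0% of all genes in limma, 3.11% had an unadjusted p under 0.05, none of the 9 did, and the adjusted p was 0.9997 for each. For SAT1 the interaction was -0.12 ± 0.34, and its 95% interval of -0.89 to 0.64 is wide beside the average change of 0.95. A difference between lines in the response to CPI203 was called for none of the 9 genes (0.323% of all genes), with 3 at an unadjusted p under 0.05 (SAT1, ODC1 and OAZ2), and in the response to LenDex for none (0.369% of all genes).

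For SAT1, ODC1, AMD1, SRM and AZIN1 the ARP1 levels lay apart from those of both other lines in the probe sets that represent the genes. The AMD1 probe sets 11747828_x_at, 11747877_x_at and 11748140_s_at overlapped between ARP1 and at least 1 other line. In 11747828_x_at, ARP1 went down to 10.34 and RPMI-8226 up to 10.41. The SAT1 probe set 11760200_a_at, near the array medians on ARP1, also overlapped. On the control arrays SAT1 was 18.7-fold higher in JJN3 and 6.37-fold higher in RPMI-8226 than in ARP1. ODC1 ran the other way, 3.26-fold higher in ARP1 than in JJN3 and 2.12-fold higher than in RPMI-8226, and so did SRM (1.87-fold and 1.75-fold) and AMD1 (1.66-fold for both). ARP1 arrays therefore combined the highest levels of ODC1, AMD1 and SRM with the lowest level of SAT1.

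AZIN1 was 2.29-fold higher in JJN3 and 2.74-fold higher in RPMI-8226 than in ARP1. SMS was highest on the RPMI-8226 arrays (mean 12.16 ± 0.15, SD over the 4 treatments), and its values on ARP1 (11.50 ± 0.03) and JJN3 (11.57 ± 0.10) overlapped. For OAZ2 the JJN3 range overlapped both others, and the ARP1 and RPMI-8226 ranges did not overlap each other. In its brightest probe set OAZ1 overlapped on the ARP1 and RPMI-8226 arrays and was higher on the JJN3 arrays. Its other probe sets did not set JJN3 apart. In 200077_PM_s_at, for example, JJN3 ran from 13.53 to 13.59 and ARP1 from 13.47 to 13.59. In the probe sets that represent SAT1, ODC1, AMD1, SRM, AZIN1 and SMOX the ARP1 range lay apart from both others, while the JJN3 and RPMI-8226 ranges overlapped. The share of all genes with this pattern is not given, so it is not read as particular to these genes. Over genes, ARP1 arrays correlated at r from 0.900 to 0.910 with JJN3 arrays and from 0.892 to 0.904 with RPMI-8226 arrays. Between JJN3 and RPMI-8226 arrays r was 0.966 to 0.982. Arrays of 1 line under 4 treatments are not replicates, so no test was made.

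Among other genes of polyamine supply and transport, AGMAT, SLC7A1 and ATP13A3 were called lower and ATP13A2 higher in at least 1 comparison. Of 20 listed genes 18 were on the array and 16 were tested. In the average over both backgrounds 2 of 16 fell with CPI203 and none rose, where 3.99% of all genes were called lower and 3.3% higher. AGMAT, annotated as an agmatinase, stood at 9.09, 8.64, 8.77 and 8.57 on the ARP1 arrays, 6.86, 6.06, 6.67 and 6.21 on the JJN3 arrays, and 7.10, 6.54, 7.30 and 6.49 on the RPMI-8226 arrays. It was lower with CPI203 within every line and fell by 0.55 ± 0.09 (adjusted p = 0.0183). SLC7A1, which carries arginine and ornithine into cells, fell by 0.40 ± 0.10 (adjusted p = 0.0395), with line averages of -0.22, -0.47 and -0.51. The median change of the 16 genes was -0.0265, beside -0.0032 over all genes.

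With LenDex 1 of the 16 fell (2.52% of all genes did), the P5-type ATPase gene ATP13A3, by 0.38 ± 0.09 (adjusted p = 0.047), and the median change of the 16 was 0.0756 beside 0.0077 over all genes. With Combo 3 of 16 fell and 1 rose, where 5.6% of all genes were called lower and 3.55% higher, and the median was 0.07 beside 0.0098 over all genes. ATP13A3 fell by 0.68 ± 0.13 (adjusted p = 0.0151), SLC7A1 by 0.61 ± 0.14 (adjusted p = 0.0266) and AGMAT by 0.59 ± 0.13 (adjusted p = 0.0255). The related ATP13A2, a lysosomal polyamine exporter, rose by 0.53 ± 0.14 (adjusted p = 0.0452), with changes of 0.19, 0.60 and 0.82 in the 3 lines. Thus the related transporter genes ATP13A2 and ATP13A3 moved in opposite directions.

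The methionine cycle and salvage genes provide S-adenosylmethionine and recycle the by-product of the aminopropyl transfers, and 13 of 14 listed were tested. MTAP, the phosphorylase that recycles it, fell with CPI203 by 0.35 ± 0.09 (adjusted p = 0.0423), 1 of 13 called where 3.99% of all genes were called lower. With LenDex 2 of 13 fell, where 2.52% of all genes did. The median changes of the 13 genes were 0.0765 with CPI203, 0.025 with LenDex and -0.1402 with Combo, beside the medians over all genes given above. MAT2A, which makes S-adenosylmethionine, stood at 12.32, 12.22, 12.07 and 11.96 on the ARP1 arrays, 12.73, 12.72, 12.34 and 12.37 on the JJN3 arrays, and 12.48, 12.41, 12.12 and 12.11 on the RPMI-8226 arrays. Its LenDex arrays were below the others in each line, and it fell by 0.32 ± 0.06 (adjusted p = 0.0212), beside the fall of AMD1, whose substrate it makes.

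MTRR, methionine synthase reductase, fell with LenDex by 0.45 ± 0.08 (adjusted p = 0.0209). With Combo 1 of 13 was called (9.15% of all genes were), MAT2A, which fell by 0.37 ± 0.09 (adjusted p = 0.0287). Of the 4 genes of hypusination, in which spermidine modifies the translation factor eIF5A, none was called in the average effects. Over all genes 7.28% were called with CPI203 and 4.25% with LenDex. DOHH, the hydroxylase, fell with Combo by 0.47 ± 0.13 (adjusted p = 0.0489), 1 of 4 called where 9.15% of all genes were. The DOHH call was absent with no level filter, with probe sets tested singly and with cyclic loess. Tested singly, MTAP, ATP13A3 with LenDex and ATP13A2 with Combo also lost their calls. Cyclic loess lost ATP13A3 with LenDex. The mean of all probe sets of a gene lost MTAP, both SLC7A1 calls and MAT2A with Combo. Some settings added calls of other listed genes. Without cell line in the fit all calls of these lists were lost, as were the Combo calls with only the control and Combo arrays. The medians of the 4 hypusination genes were -0.0058 with CPI203, -0.0984 with LenDex and -0.0378 with Combo. No gene of these 3 lists was called in the remaining comparisons. Without the JJN3 control array the only call left among these lists in the average effects and in Combo against control was ATP13A3 with Combo, and when the JJN3 and RPMI-8226 arrays were averaged, or without the JJN3 or the RPMI-8226 line, there was none. Of the 12 fits that left out 1 array, the Combo calls held in 10 for ATP13A3, 8 for AGMAT, 7 for SLC7A1 and MAT2A, 3 for DOHH and 2 for ATP13A2. The CPI203 calls held in 5 for AGMAT, 3 for SLC7A1 and 0 for MTAP, and the LenDex calls in 6 for MTRR, 4 for MAT2A and 1 for ATP13A3.

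The genes whose levels over the 12 arrays, centred within each line, were most like those of SAT1 were TESK2 (Pearson r = 0.97), RAB4B (0.96), TTC17 (0.96), NPLOC4 (0.96) and TTC14 (0.96). For ODC1 they were UCHL3 (0.97), PWWP2A (0.96), IDH3A (0.96), SQSTM1 (0.96) and C21orf91 (0.95). The 2 lists share no gene. They are the highest of 15173 values each and are given as a description.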

How the data were processed

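Transcript levels of 3 cell lines in 4 groups were read on 12 single-colour Affymetrix arrays. The authors deposited 1 log2 level per probe set and array, computed with RMA (Affymetrix Expression Console 1.1), according to the submitters' processing notes. No source names the log base, which follows from the range of the values. Whether the arrays were normalised together is not given in the sources used here. RMA sets arrays processed together to 1 distribution, so a change is relative to most other transcripts.

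Groups came from the treatment labels. The platform annotation gave 1 gene symbol to 45253 of 49386 probe sets, several to 1327 and none to 2713, and 93 were controls. A gene was represented by its probe set with the highest mean, and the 15173 of 18239 genes that reached a log2 level of 5 on 3 or more arrays were tested. limma 3.58.1 in R 4.3.3 fitted group with cell line as a block over all 12 arrays (6 residual degrees of freedom). Its moderated tests were two-sided, and p-values were adjusted by Benjamini-Hochberg across every gene tested. The average effect of a drug is the mean of its effects with and without the other. Differences between lines were tested with a moderated F test (3 residual degrees of freedom). The fit was tested on simulated data with independent residuals and, for the average effect, the same change with CPI203 in every line. That test of the average effect does not cover responses that differ between lines or the likeness of JJN3 and RPMI-8226 arrays. The block rests on arrays sharing a cell line, and deviations from group means correlated within a line at r from 0.820 to 0.938.

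The 9 genes and the lists of further polyamine, methionine and hypusination genes and of cell markers were chosen with earlier results of these data known. Named genes were the 9 members, MYC and HEXIM1, called genes of the lists and the 5 genes most like SAT1 or ODC1 in their line-centred levels. SDC1, MS4A1, IRF4, BACH2, PAX5, SLAMF7, POU2AF1, IGKC and HBG1 were named after their values were seen. Alternatives covered the level filter, the choice of probe set, the block, the moderation, cyclic loess, and leaving out lines or arrays. Sequences come from RefSeq.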

Additional observations from a re-analysis of the deposited data

Results flagged for a closer look

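Some responses differed between the lines. For HEXIM1 the change with CPI203 differed between lines in limma's F test (adjusted p = 0.0262), with 0.22 and 0.25 in the ARP1 pairs against 1.38 to 1.86 in the others. For the SAT1 probe set 11763704_a_at the adjusted p was 0.0479 (0.204 without the JJN3 control array), with the changes smallest in ARP1.

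With LenDex, both pairs of arrays of 1 line moved opposite to both pairs of another line for 5 of the 9 genes, a sign pattern that was not tested in itself. The share of all genes with such a pattern is not given, and no line difference was called for these genes. Some signs rest on changes near 0, such as 0.0065 for OAZ2 in ARP1 and 0.0022 for SMS in JJN3 (LenDex against control). SAT1 was up in ARP1 and down in RPMI-8226, and the line averages were at most 0.44 apart (adjusted p = 0.455 in the F test of a line difference). SMS was down in ARP1 and up in JJN3 and RPMI-8226, at most 0.17 apart (adjusted p = 0.771). OAZ2 was up in ARP1 and down in RPMI-8226, at most 0.19 apart (adjusted p = 0.746). AZIN1 was down in ARP1 and up in JJN3, at most 0.44 apart (adjusted p = 0.397). SMOX was down in ARP1 and up in JJN3 and RPMI-8226, at most 0.27 apart (adjusted p = 0.588).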

How the results depend on the processing

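The count of the 9 genes called depended on the settings in most comparisons, and no called change reversed its direction. Without the replicate block, that is without cell line in the fit, 0 genes were called for the CPI203 average, the LenDex average and Combo against control, where the main counts were 2, 1 and 1. These 3 counts were also 0 without the JJN3 control array and when JJN3 and RPMI-8226 arrays were averaged, and that for Combo was 0 with only the control and Combo arrays in the fit. With a mean level of 6 or more, 4 genes were called for Combo and 2 for the LenDex average. With the mean of all probe sets of a gene, the counts were 1 for LenDex against control, 2 for Combo, 1 for the CPI203 average, 2 for the LenDex average and 1 for a difference between lines in the CPI203 effect. A variance trend with a robust fit gave 1, 3, 4, 2 and 3 in the same order, and cyclic loess gave 3 for Combo. Leaving out 1 line or 1 array gave 0 to 1 for CPI203 against control, 0 to 3 for Combo, 0 to 3 for the CPI203 average and 0 to 1 for the LenDex average. The omissions of single arrays and the settings for the further gene lists were added after seeing the data. The share of all genes called in each of these settings is not given. The counts can therefore not be read as particular to the 9 genes. The cause of these differences was not tested. SMOX had signal near the floor, which limits its changes. The refits of single SAT1 and AMD1 probe sets were also added after seeing the data.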
